A study of Rattus norvegicus with 2 samples.

Results

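The genes described here are those of the proteasome. A gene was taken as a member when a peak in the authors' annotation carried a name made of Psm, a letter from a to g and a number. This rule found 20 genes among the 8094 gene names of the annotation, and they held 58 of its 28706 peaks. The tissue was myocardium from Wistar rats, all male, that had undergone abdominal aortic constriction (AAC), in which the aorta is tied against a wire above the renal arteries. It was examined by chromatin immunoprecipitation and sequencing (ChIP-seq). The peaks come from 1 ChIP library, and its input library had no values here. The labels give both libraries the replicate number 3, name the antibody by catalogue number alone, and state neither the age nor the number of rats. H3K18la, lactylation of lysine 18 of histone H3, was taken as the target because the series title names it. No library labelled as unoperated was analysed, so nothing below compares AAC with another condition, and no value has a replicate error.

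The proteasome degrades proteins tagged with ubiquitin. Its 20S core is a barrel of outer alpha rings, which gate entry, and inner beta rings, which hold the catalytic sites. The 19S cap binds ubiquitin chains, removes them and unfolds the substrate with a ring of ATPases. In the immunoproteasome, interferon-induced beta subunits replace the catalytic ones of the core, and activators of the Psme family can take the place of the 19S cap. Cardiomyocytes rely on the proteasome to clear worn sarcomere proteins and to shrink or remodel when load changes.

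Membership needs a peak, so the count of members says nothing about how often proteasome genes are marked. For that, all 48 proteasome genes of a current RefSeq gene table were used, with or without a peak: 15 of the 20S core, 17 of the 19S cap, 4 of the immunoproteasome, 4 activators, 1 inhibitor and 7 assembly chaperones. The immunoproteasome group was Psmb8 to Psmb11, so the thymic subunit gene Psmb11 was counted in it. Another 6 protein-coding symbols fit the name pattern (Psmb3l1, Psmb3l2, Psmb6l1, Psmg4l1, Psmc3ip and Psme3ip1). They had no peak and were left out of the groups. The same was true of the table's 48 pseudogene symbols of this pattern. Protein-coding symbols of like form, such as Mrpl41l1 and Hspd1l1, were kept among all protein-coding genes and in the other gene families below. The name Psma3l of the annotation is an older symbol of Psma3 and was counted as Psma3.

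Over all called peaks, the share of proteasome genes with a peak near the transcription start site (TSS) was above that of all protein-coding genes. Among the stronger peaks it was still higher by count. Fewer proteasome genes had such a peak, however, and the share of all genes lay inside the interval. The 20S core and the 19S cap had similar shares. A peak of any class stood at 20 of 48 genes (41.7%, 95% Clopper-Pearson interval 27.6 to 56.8%), against 27.1% of 23148 protein-coding genes. Counting only centres at most 1000 bp from the TSS, 16 of 48 genes qualified (33.3%, 20.4 to 48.4%), against 17.1% of all genes. In both cases the share of all genes lay below the interval. It counts only names matched to the gene table, whereas every proteasome name was matched. If every name of the annotation counted as a protein-coding gene, it could reach 35.0% for any peak, inside the interval, and 18.95% within 1000 bp, still below it. Counting the 6 protein-coding symbols left out above would lower the proteasome shares, to 20 and 16 of 54. Intervals for those shares were not computed, so whether they would hold the share of all genes is not given. By the annotation's promoter-TSS class there were 7 of 48 genes (14.6%, 6.07 to 27.8%), against 9.87%, which lies inside the interval. For 2 of the 7, Psma7 and Psmb9, the class comes from a transcript not known here to be theirs. Intervals cover counting error only, since genes of 1 library are not replicates. Among peaks of −log10 q of at least 5, 12 of 48 genes had any peak (25%, against 14.4% of all genes), 7 had one within 1000 bp (14.6%, against 8.0%) and 2 a promoter-TSS peak (4.17%, against 4.23%). At fold enrichment of at least 4 the counts were 12 (25%, against 19.7%), 8 (16.7%, against 10.3%) and 2 (4.17%, against 5.37%). At both thresholds the intervals for any peak (13.6 to 39.6%) and for peaks within 1000 bp (6.07 to 27.8% and 7.48 to 30.2%) held the share of all genes. The promoter-TSS share was no higher than that of all genes. Of the 20 genes with a peak, 16 had one within 1000 bp (80.0%), against 63.1% of all protein-coding genes with a peak. A promoter-TSS peak stood at 7 of the 20 (35.0%), against 36.5%.

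**Figure D1:**
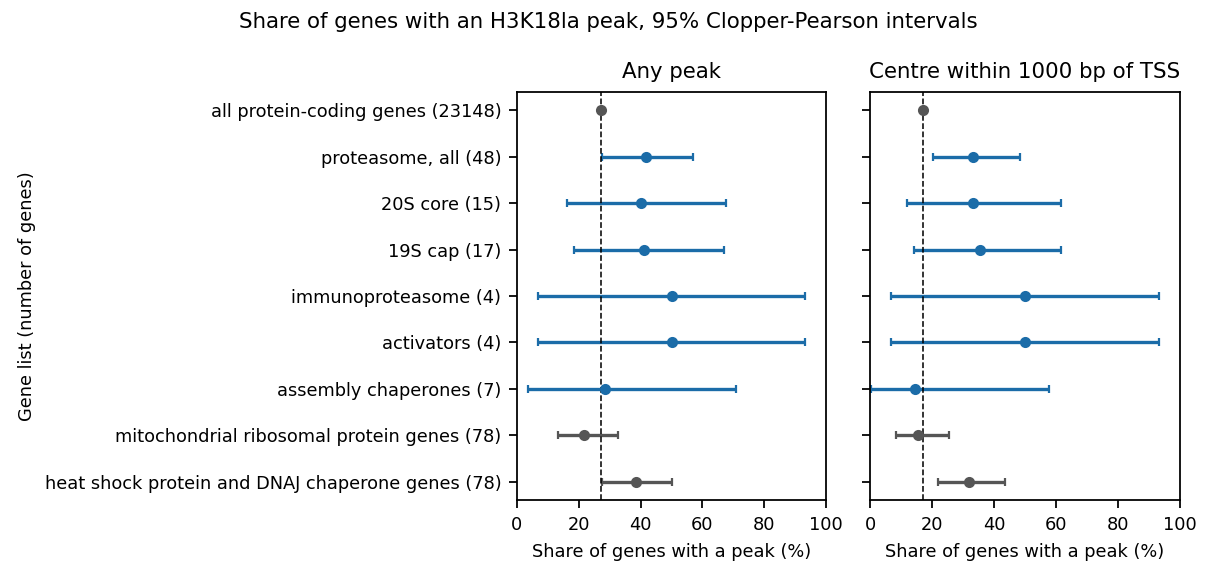
Share of genes with a peak (x axis, %) for each gene list (y axis, number of genes in brackets), for any peak on the left and for peak centres within 1000 bp of the TSS on the right. Points are shares, bars are 95% Clopper-Pearson intervals, and the dashed line is the share of all protein-coding genes (27.1% and 17.1%). The proteasome as a whole lies to the right of both lines, and the intervals of its groups overlap each other.

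Within 1000 bp, 5 of 15 core genes had a peak (33.3%, 11.8 to 61.6%) and 6 of 17 cap genes (35.3%, 14.2 to 61.7%). The immunoproteasome and the activators each had 2 of 4 (50.0%, 6.76 to 93.2%). Of the assembly chaperones 1 of 7 had one (14.3%, 0.361 to 57.9%), and the inhibitor gene Psmf1 had none there. Differences between the groups were not tested, and the intervals overlap. Promoter-TSS peaks stood at 4 of 15 core genes (26.7%, 7.79 to 55.1%) and at 0 of 17 cap genes (0 to 19.5%). Both intervals hold the 9.87% of all genes and they overlap, and this difference was not tested. All 6 cap genes with a peak near the TSS had it in intron 1 or exon 1, downstream of the start.

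Other gene families of protein turnover and of large complexes gave shares on both sides. Heat shock protein and DNAJ chaperone genes had a peak within 1000 bp at 25 of 78 genes (32.1%, 21.9 to 43.6%). Mitochondrial ribosomal protein genes, which also encode a large complex, had one at 12 of 78 (15.4%, 8.21 to 25.3%). The proteasome share lay close to the chaperones and above the mitochondrial ribosome, and neither difference was tested.

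Over all members, peaks at proteasome genes were of ordinary strength, but those of core and cap genes alone were weaker by median. Fold enrichment is the authors' own ratio for each peak, whose reference signal is not given in the sources used here. The strongest peak of each member had a median of 4.68-fold (quartiles 3.80 and 5.17), against 4.64-fold (3.94 and 5.51) over all 8094 named genes with a peak. For the 13 core and cap genes with a peak the median was 3.86-fold, below the lower quartile of all named genes. It was 4.22-fold in the core and 3.78-fold in the cap, and these differences were not tested. The strongest peak reached 6-fold at 3 of the 20 members (Psmd12, Psma6 and Psme1), near the 15.5% of all named genes. For the strongest peak within 1000 bp, the 16 genes had a median of 4.06-fold (3.58 and 4.87), against 4.28-fold (3.64 and 5.07) over 4387 named genes. Most members had a single peak: 13 of the 20 had 1, while Psmd12 had 8 and Psma6 and Psmg1 had 12 each, a number reached by 5.32% of all named genes. Those 3 genes held 32 of the 58 peaks. They also held 27 of the 35 intergenic peaks. Without them, the median of the other 26 peaks was 3.81-fold, against 4.26-fold over all 58. Peaks of at least 6-fold made up 8 of the 58 (13.8%), against 6.31% of the library, and 7 of the 8 belonged to Psma6 and Psmd12.

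**Figure D2:**
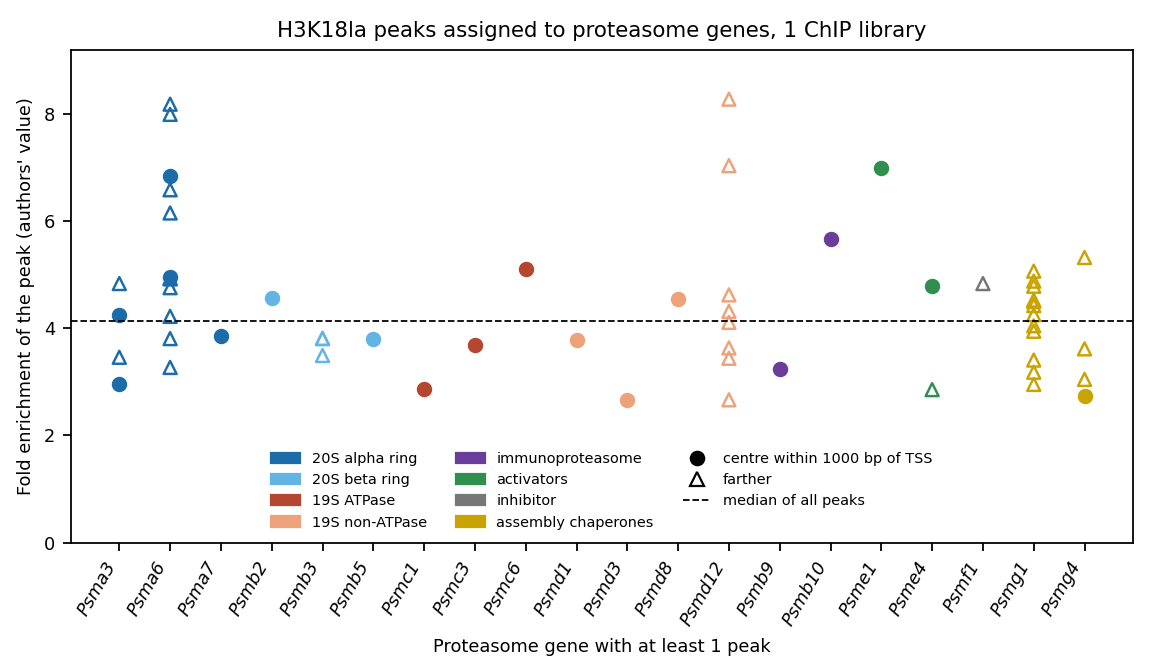
Fold enrichment of each of the 58 peaks (y axis, the authors' ratio) by the proteasome gene it was assigned to (x axis), coloured by group. Filled circles have the centre within 1000 bp of the TSS, open triangles lie farther away, and the dashed line is the median of all peaks in the library (4.13). The highest values, at Psmd12 and Psma6, belong to distant peaks, and single peaks near the TSS make up most other genes.

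The 18 peaks within 1000 bp of a proteasome gene start sat mostly downstream of it, as did those of the library as a whole. The centre was downstream in 13 of 18 (72.2%, 46.5 to 90.3%), against 59.8% of 5569 such peaks in the library, which lies inside the interval. In 9 of 18 it lay 250 to 500 bp downstream (50.0%, 26.0 to 74.0%), against 24.9% of all. This zone was not among the measures planned at the start, and the difference was not tested. Near its edge, the centre at Psmb9 (252 bp) fell inside and one at Psma6 (247 bp) outside. The outermost centre inside the 1000 bp limit was 559 bp upstream, at Psma6, and the first outside that limit was 1112 bp downstream, also at Psma6. Their widths had a median of 454 bp, against 411 bp for all peaks this close to a TSS.

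**Figure D3:**
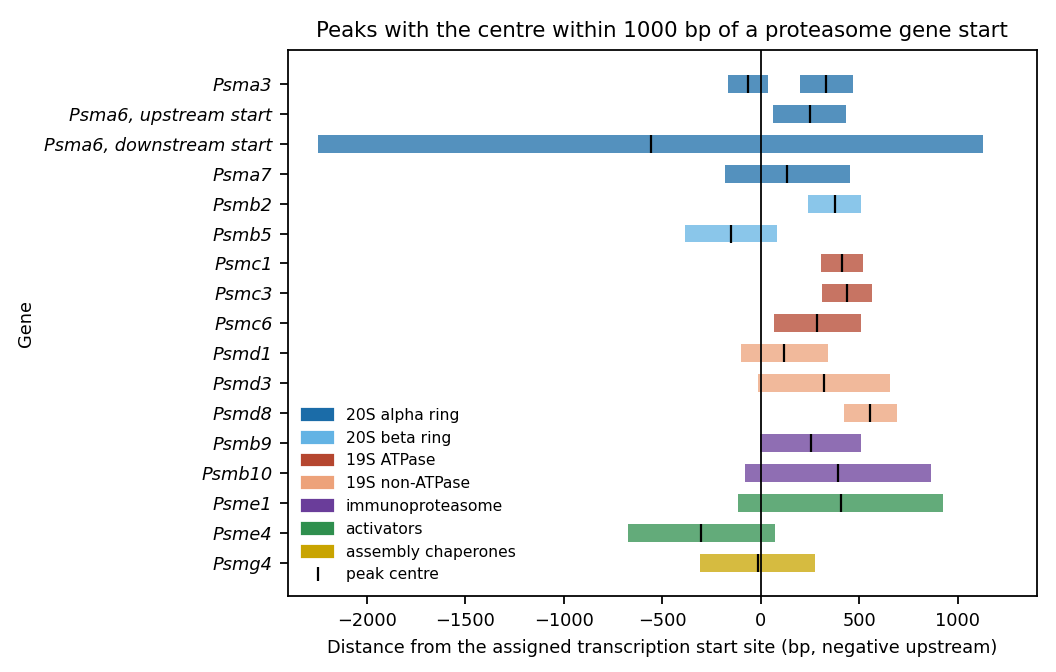
Extent of the 18 peaks whose centre lies within 1000 bp of a proteasome gene start (x axis, bp from the assigned TSS, negative upstream), 1 row per gene and for Psma6 1 row per annotated start. Bars span the peak and ticks mark its centre. Of the 18 centres, 13 lie to the right of the start, and the 3373 bp peak over the downstream start of Psma6 is the widest.

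In the alpha ring of the 20S core, 3 of 8 genes had peaks, all with one near the TSS. Psma6 had the broadest marking of any member. A peak of 3373 bp, 6.86-fold and −log10 q 15.8 covered its downstream annotated start (chr6:76185838-76189210, centre 559 bp upstream). In intron 1 of its longer transcript stood a peak of 5514 bp and 6.59-fold (chr6:76176220-76181733), the 17th widest in the library, with 2 smaller ones of 4.96-fold and 4.76-fold toward the upstream start. Psma3 had peaks on both sides of its start, 2.95-fold at 65 bp upstream (chr6:93422838-93423037) and 4.26-fold at 332 bp downstream in intron 1. Its strongest peak, 4.84-fold, lay 6.95 kb upstream. Psma7 had a single peak of 3.86-fold (chr3:175425946-175426576), classed as promoter by a transcript other than the one it was assigned to. No peak carried the name of Psma1, Psma2, Psma4, Psma5 or the testis-specific Psma8.

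The beta ring had peaks at 3 of 7 genes, all under 5-fold. Psmb5 encodes the chymotrypsin-like catalytic subunit, the main target of proteasome inhibitor drugs. It had a promoter peak of 468 bp and 3.81-fold (−log10 q 4.43), 153 bp upstream of the TSS (chr15:33263579-33264046). Psmb2, a structural subunit, had a peak of 266 bp and 4.57-fold (−log10 q 5.01) in intron 1, 374 bp downstream (chr5:144702191-144702456). Psmb3, another structural subunit, had no peak at its start and 3 peaks between 2.75 and 4.50 kb upstream, of 3.49-fold to 3.82-fold. The other catalytic subunits, Psmb6 and Psmb7, had no peak, nor did Psmb1 and Psmb4. Of the 3 constitutive catalytic genes, then, Psmb5 alone carried the mark by this call.

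In the ATPase ring of the 19S cap, which threads the substrate into the core, Psmc1, Psmc3 and Psmc6 had 1 peak each, all in intron 1. Psmc6 was the strongest, 439 bp wide at 5.12-fold (−log10 q 5.57), 286 bp downstream (chr15:19667520-19667958). Psmc3 had 3.69-fold at 435 bp (chr3:79877246-79877500) and Psmc1 2.88-fold at 413 bp (chr6:124123536-124123747). The Psmc1 value stood at percentile 4.92 of all peaks in the library. Psmc2, Psmc4 and Psmc5 had none.

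Among the 11 non-ATPase subunits of the cap, 4 had peaks. Psmd1, a large scaffold subunit, had 3.78-fold in intron 1, 119 bp downstream (chr9:93080515-93080953). Psmd8, a subunit of the lid, had 4.55-fold in intron 1, 555 bp downstream (chr1:88122954-88123222). Psmd3, also of the lid, had a peak in exon 1 that was wide for its strength, 672 bp at 2.67-fold (chr10:86599205-86599876). With −log10 q of 1.52 and a fold at percentile 1.87 of the library, it was the weakest member peak within 1000 bp of a TSS. No peak carried the name of Psmd14, the deubiquitinase of the lid, or of Psmd4, a ubiquitin receptor. Psmd2, Psmd6, Psmd7, Psmd11 and Psmd13 also had none.

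Psmd12, a lid subunit, had the strongest peak of all members but nothing at its start. Its 8 peaks were intergenic, from 8.996 to 30.8 kb upstream of the TSS. The strongest was 2144 bp wide at 8.28-fold (−log10 q 15.0), 10.8 kb upstream (chr10:95694795-95696938), rank 159 of the 28706 peaks by fold. A second strong one, 7.04-fold, lay 28.0 kb upstream (chr10:95678160-95679290) in a run of 6 Psmd12 peaks. Joined across gaps of up to 12.5 kb, that run continued into 3 peaks named for the gene model RGD1359290, so the name Psmd12 ends inside it. The annotation assigns a peak to the gene with the nearest start. Which gene these peaks act on was not tested.

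The immunoproteasome group, with the thymic Psmb11 counted in it, had peaks at 2 of its 4 genes. Psmb10 was the stronger, with 5.66-fold over 940 bp (−log10 q 8.56), in exon 2 of its transcript (chr19:37911167-37912106, centre 391 bp downstream). Psmb9 had a promoter peak of 515 bp at 3.24-fold and −log10 q 2.84 (chr20:3978336-3978850, 252 bp downstream), a class it also takes from another transcript. It faces a peak of 2.95-fold named for Tap1 (chr20:3979203-3979755), the peptide transporter gene whose start lies 457 bp from that of Psmb9 on the opposite strand. The 2 peaks were 352 bp apart. No peak carried the name of Psmb8, whose gene lies in the same cluster, or of Psmb11, the thymic catalytic subunit. The nearest start to that of Psmb8 in the gene table belongs to Tap2, 4735 bp away, and Tap2 had 7.08-fold in intron 1 (chr20:3995682-3995990).

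Immunoproteasome genes are most active in immune cells, so markers of those cells are given beside them. Of 10 immune cell markers none had a peak within 1000 bp of the TSS (interval 0 to 30.9%), which holds the 17.1% of all genes. Peaks farther away stood at 2 of them, Csf1r (3.70-fold) and Cd79a (7.50-fold), and the other 8, Ptprc and Cd68 among them, had none. Of 10 cardiomyocyte markers, 7 had a peak (interval 34.8 to 93.3%, against 27.1% of all genes). A peak within 1000 bp stood at 5 of them (18.7 to 81.3%), led there by Tnnt2 at 5.05-fold. Myh6, Ryr2 and Ttn had no peak. Endothelial markers had 5 of 6 with a peak near the TSS (35.9 to 99.6%), and fibroblast markers 0 of 6 (0 to 45.9%). The fibroblast interval also holds 17.1%. Chromatin of all cell types in the tissue is mixed, so a mark in fewer cells and a weaker mark in all cannot be told apart.

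The activators differed gene by gene. Psme1 and Psme2 encode the subunits of the interferon-induced PA28 ring. Psme1 had the strongest peak within 1000 bp of any proteasome gene, 6.99-fold over 1039 bp with −log10 q of 12.0 (chr15:34255956-34256994, centre 404 bp downstream). The annotation classes it as exon 5 of 5 of a transcript other than the one whose start it was assigned to. Psme2, its partner, had no peak of its own name. Psme4, which encodes the nuclear activator PA200, had a promoter peak of 746 bp, 4.79-fold and −log10 q 5.34 (chr14:115165742-115166487, 302 bp upstream) and 2.86-fold in intron 1, 6.27 kb downstream. Psme3, the nuclear PA28 gene, had none. The inhibitor and regulator Psmf1 had a peak of 230 bp, 4.84-fold and −log10 q 5.69 in intron 2, 3.24 kb from the start (chr3:147259922-147260151).

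Assembly chaperones, which build the core and the cap and then leave, had peaks at 2 of 7 genes. Psmg4 had a promoter peak of 2.73-fold, centred 17 bp upstream (chr17:31411685-31412264), and 3 intergenic ones upstream, the strongest 311 bp wide, 5.33-fold and −log10 q 6.43 at 9.58 kb (chr17:31421379-31421689). All 12 peaks of Psmg1 lay 95.7 to 128 kb downstream of its start, between genes. They ranged from 2.95-fold to 5.07-fold with a median of 4.34-fold. With 1 peak named for Ets2, a transcription factor gene, they formed a stretch of 45.9 kb. The chaperones Psmd5, Psmd9, Psmd10, Psmg2 and Psmg3 had no peak.

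The most extensive marking beside a proteasome gene ran from Psma6 to Nfkbia, which encodes the inhibitor of NF-κB. Joined across gaps of up to 12.5 kb, 31 peaks formed a stretch of 75.7 kb (chr6:76207292-76282972) in which peaks covered 42404 bp, or 56.0%. By covered length it was the 8th of 11011 stretches in the library, and by number of peaks the 24th. Only 7 of its peaks were named for Psma6, at 19.4 to 38.9 kb downstream of the downstream start and 3.27-fold to 8.19-fold. The other 24 were named for Nfkbia, with folds from 2.79 to 8.64. The widest Psma6 peak, 5920 bp at 8.19-fold with −log10 q of 21.9 (chr6:76224036-76229955), ended 704 bp before the first peak named for Nfkbia. The 4 peaks over the Psma6 starts formed a separate stretch of 14.7 kb, of which 69.7% was covered. One more peak named for Psma6, 4.94-fold and 28.1 kb upstream of its upstream start, lay in an intron of another transcript.

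**Figure D4:**
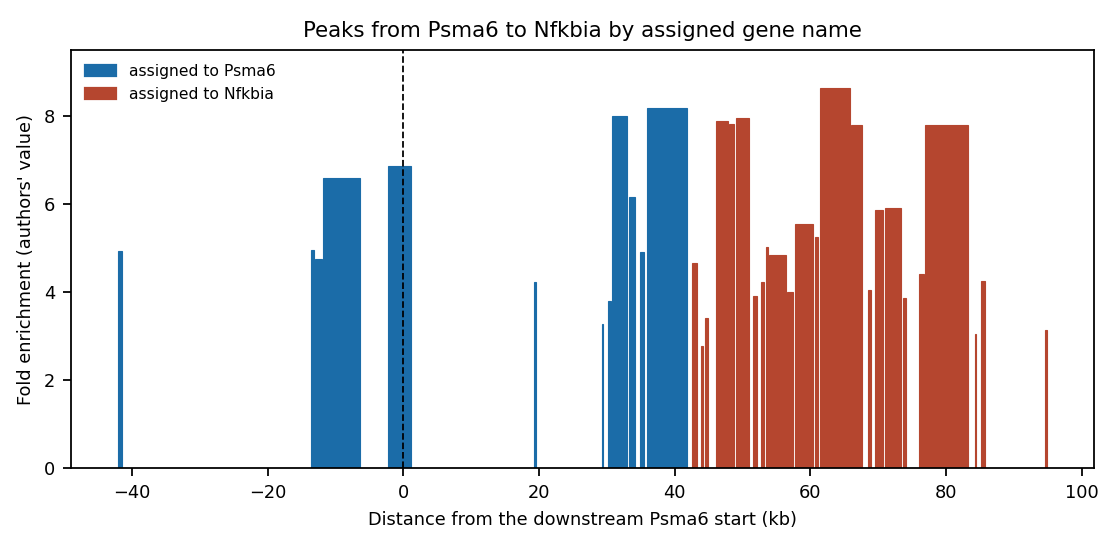
Fold enrichment (y axis, the authors' ratio) of the peaks from Psma6 to Nfkbia against distance from the downstream Psma6 start (x axis, kb, dashed line at 0), each bar as wide as its peak and coloured by the gene name the annotation gives. The peaks over the Psma6 starts stand apart from the dense run to their right, where 7 peaks named for Psma6 pass without a wide gap into 24 named for Nfkbia.

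Upstream sequences were examined at the starts for motifs known from proteasome and interferon-induced promoters. Bases before the start come from RefSeq on assembly GRCr8, and could not be placed inside the peaks, which are on rn6. The table held 43 of the 48 genes. Shown first are genes with the strongest peaks at the start, Psme1, Psma6 and Psmb10, then the neighbours Psmb9, with a peak of 3.24-fold, and Psmb8, with none. Psmb5, chosen after its sequence was seen, is shown for the catalytic core. Capitals mark any match, on either strand, to TGANNNNGC (the core of the antioxidant response element, through which NFE2L1 and NFE2L2 act), CCAAT (bound by NF-Y) or the interferon-stimulated response element (GAAA, any 2 bases, then GAAA again). Matches of different motifs may overlap. Bases inside the gene's own span are left off where another transcript starts earlier, except at Psma6, whose window lies within the span of its longer transcript.
Psme1 (chr15:33038721-33038961, plus strand): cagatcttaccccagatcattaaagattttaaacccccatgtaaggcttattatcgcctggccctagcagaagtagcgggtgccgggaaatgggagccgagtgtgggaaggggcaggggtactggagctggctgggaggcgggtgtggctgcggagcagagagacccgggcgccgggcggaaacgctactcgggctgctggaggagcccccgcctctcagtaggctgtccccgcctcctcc
Psma6 (chr6:78514097-78514346, plus strand): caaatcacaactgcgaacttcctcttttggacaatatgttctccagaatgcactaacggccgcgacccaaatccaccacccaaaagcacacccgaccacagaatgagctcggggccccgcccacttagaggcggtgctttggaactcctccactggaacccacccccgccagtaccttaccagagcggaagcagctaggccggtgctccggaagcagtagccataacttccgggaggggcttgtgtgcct
Psmb10 (chr19:50743293-50743542, minus strand): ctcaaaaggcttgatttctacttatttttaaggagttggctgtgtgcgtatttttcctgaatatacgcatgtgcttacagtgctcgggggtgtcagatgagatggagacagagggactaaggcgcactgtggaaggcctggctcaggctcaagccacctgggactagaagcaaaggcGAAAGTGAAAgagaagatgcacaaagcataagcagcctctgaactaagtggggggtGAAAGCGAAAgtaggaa
Psmb9 (chr20:4668750-4668951, plus strand): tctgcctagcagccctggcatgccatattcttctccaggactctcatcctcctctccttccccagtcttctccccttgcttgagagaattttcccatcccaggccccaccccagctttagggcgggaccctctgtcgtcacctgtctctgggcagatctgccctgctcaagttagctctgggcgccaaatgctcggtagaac
Psmb8 (chr20:4657050-4657281, minus strand): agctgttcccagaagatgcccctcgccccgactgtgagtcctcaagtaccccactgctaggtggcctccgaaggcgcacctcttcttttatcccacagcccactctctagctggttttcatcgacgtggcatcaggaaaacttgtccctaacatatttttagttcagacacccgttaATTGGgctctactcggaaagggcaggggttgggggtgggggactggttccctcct
Psmb5 (chr15:32047380-32047629, minus strand): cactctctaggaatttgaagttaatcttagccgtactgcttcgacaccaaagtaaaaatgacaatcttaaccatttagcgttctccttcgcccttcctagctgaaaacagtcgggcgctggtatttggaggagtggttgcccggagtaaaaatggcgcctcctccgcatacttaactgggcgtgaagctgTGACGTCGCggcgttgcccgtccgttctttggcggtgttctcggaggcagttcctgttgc

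Psmb10 held 2 matches to the interferon motif. Psmb8 held a CCAAT match and no peak, Psmb5 an antioxidant motif, and the printed bases of Psme1, Psma6 and Psmb9 none of the 3. Windows held at most 250 upstream bases, and some were shorter, such as 202 at Psmb9. The interferon motif stood in the window of 5 of 43 proteasome genes (11.6%, 3.89 to 25.1%), against 3.36% of 21840 protein-coding genes. They were Psma4, Psmb3, Psmd7, Psmb10 and Psme2, that is 1 of 15 genes with a peak within 1000 bp and 4 of 28 without. CCAAT was found at 20 of 43 (46.5%, 31.2 to 62.3%), against 34.5% of all genes, and at 9 of 14 core genes (64.3%, 35.1 to 87.2%). The antioxidant motif was found at 17 of 43 (39.5%, 24.98 to 55.6%), close to the 34.5% of all genes.

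CCAAT was less frequent, by count, at the genes with peaks. It was present at 4 of 15 genes with a peak within 1000 bp (26.7%, 7.79 to 55.1%) and at 16 of 28 without one (57.1%, 37.2 to 75.5%). This difference was not tested, and the intervals overlap. The antioxidant motif was present at 7 of 15 with a peak and 10 of 28 without.

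Genes that work with the proteasome were counted by list, beside the 17.1% of all genes with a peak within 1000 bp. Regulators of proteasome gene transcription had 5 of 6: Nfe2l1, which raises subunit expression when the proteasome is impaired, had 5.72-fold at its promoter (chr10:84698770-84699093). Foxo3, a factor that drives proteolysis in atrophying muscle, had 7.27-fold over 3083 bp, the strongest of that list. Vcp, the ATPase that extracts ubiquitinated proteins, had 5.66-fold in intron 1, and Ddi2, the protease that activates NFE2L1, had none.

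Of 5 further subunits and assembly factors, 3 had a peak within 1000 bp. Adrm1, a ubiquitin receptor of the cap, had 6.47-fold in intron 1 (chr3:175548416-175548667). The small cap subunit Sem1 had 4.44-fold, and Pomp, which completes the core, 3.10-fold near the TSS and 6.25-fold at 47.0 kb upstream. Akirin2 had none. No peak was found for Paaf1 either, but it was not among the protein-coding symbols of the gene table. A peak under its name could therefore have been missed. Shuttles and deubiquitinases of the cap had 5 of 11, led by Zfand5, which stimulates the proteasome, at 5.69-fold. Antigen presentation genes, which act after the immunoproteasome, had 7 of 8, led by Tap2, and the regulator Nlrc5 had none.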

How the data were processed

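Values came from the annotated ChIP-seq peak list of 1 library. The genome was rn6 and the tools included Bowtie2, MACS2 and HOMER, which the submitters' processing notes name without roles, beside FastQC, Trim Galore, SAMtools and deepTools. Versions, and whether the input was the background, are not given in the sources used here. Peaks carry 1 sample name and a folder named q0.05, per the file headers. Fold enrichment is the ratio the authors deposited, q is given as −log10 per the file headers, and the deposited score equals the whole-number portion of 10 times that value. Distances run from the peak centre to the TSS. Peaks and annotation were joined by peak name, and the largest q was 0.0493.

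Names were matched to a GRCr8 gene table (78.8% of names), used for symbols and gene order. Shares have 95% Clopper-Pearson intervals (SciPy 1.17.1), tested on simulated data. With 1 library there was no replicate to test against, so no p-values are given. Depth is unknown, so no peak means no call at this depth and under this name. Members and lists were chosen with earlier results of these data known. By the rule for named genes, every member is accounted for. For each immunoproteasome and activator gene with a peak, and for each group, the strongest peak is described in full. For each related list reported, the counts and the strongest member are given. The window of Psmc6 met the rule for printing but overlaps another gene and is not shown. Stricter peaks, other distances and subsets were tried as alternatives. Of the lists of related genes chosen at the start, 1 is not reported here.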

Additional observations from a re-analysis of the deposited data

How the results depend on the processing

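Stricter peak thresholds lowered the shares of all 48 genes, of the core, the cap and the immunoproteasome, while the activators stayed at 2 of 4. At −log10 q of at least 5, any peak stood at 25% of the 48 genes (14.4% of all protein-coding genes), a peak within 1000 bp at 14.6% (8.0%) and a promoter-TSS peak at 4.17% (4.23%). At fold enrichment of at least 4 these were 25% (19.7%), 16.7% (10.3%) and 4.17% (5.37%). The promoter-TSS share thus fell below that of all genes under both. For the other 2 the intervals now held the share of all genes, unlike those over all peaks. For the 19S cap, the share within 1000 bp fell to 11.8% under both thresholds and to 0% by the promoter-TSS class. Counted over genes with a peak alone, 80.0% had one within 1000 bp, against 63.1% of all genes with a peak. Of 33 alternatives, these 10 left the interval of the reported value and the other 23 stayed inside it. The median fold of the strongest peak without distant peaks was 4.06, a step chosen after seeing the data, as was leaving out peaks beyond 100 kb. Without Psma6, Psmd12 and Psmg1, the median over member peaks was 3.81 in place of 4.26. With gaps of up to 5 kb, the stretch at Nfkbia had 29 peaks, 6 of them named for Psma6. No paired analysis was possible because 1 library had values. Depth limits what an absent peak can show.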

Other observations

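Several proteasome genes share a start region with a neighbour. In the gene table, 7 of 43 proteasome genes start within 1000 bp of another protein-coding gene on the opposite strand, where a peak can take either name. Besides Psmb9 and Tap1, the pairs were Psma2 with Mrpl32, Psmc5 with Ftsj3, Psmd13 with Sirt3, Psmd10 with Atg4a, Psmg2 with Cep76 and Psme2 with Rnf31. In those 6 pairs the proteasome gene had no peak of its own name. Only Rnf31, a subunit of the linear ubiquitin ligase complex, had peaks within 1000 bp, one at 224 bp upstream (chr15:34270253-34270596) and the stronger, 4.88-fold, at 475 bp downstream (chr15:34270917-34271330). In GRCr8 its start lies 872 bp from that of Psme2. The other 5 pairs, among them that of the mitochondrial deacetylase gene Sirt3, had no peak near the start under either name.

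Base composition of the upstream windows, of at most 250 bases, was alike with and without a peak. The median GC content was 57.2% (quartiles 51.8 and 59.8%) at 15 proteasome genes with a peak within 1000 bp and 55.6% (51.6 and 60.4%) at 28 without one. The median number of CpG was 14 in both, against 8 over all protein-coding genes.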
